A study of Homo sapiens with 20 samples.

Results

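CDKN1A encodes p21, the inhibitor of cyclin-dependent kinases that halts the cell cycle when p53 is active. The members described here are the called ChIP-seq peaks that overlap the RefSeq gene CDKN1A (GRCh38, chromosome 6, 36676463 to 36687332) or the 100 kb on either side of it. The 18 deposited peak lists held 992895 peaks in all, and 298 of them lay in this window of 210.87 kb. CDKN1A was 1 of the 19974 protein-coding genes in the annotation. The window also held SRSF3, which encodes a splicing factor, RAB44, of the Rab GTPase family, and CPNE5, of the copine family. Its noncoding genes included PANDAR and DINOL, long noncoding RNAs at the CDKN1A promoter that are known from p53 work. The annotation used gives no exons, so peaks are placed by gene and by distance from the start site only.

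All libraries came from HCT116, an established human colorectal carcinoma line with a wild-type p53 gene. The groups were wild-type cells (WT) and MLL4 knockout cells (KO), cultured alike, and the labels name no treatment that would activate p53. The study asked how MLL4 and p53 work together on chromatin. Each genotype had 2 libraries of H3K27ac, of H3K4me3 and of p53, but a single library of H3K4me1, MLL4 and MLL1. For those 3 targets replicate error is unknown and no p-value is given. The labels do not say how many clones the KO line represents or whether replicates were separate cultures, so a p-value here reflects no more than library-to-library spread, part of which may be technical. With 2 libraries against 2, the two-sided exact permutation test used throughout cannot go below p = 0.33.

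p53 binds response elements near its target genes and recruits coactivators there, and CDKN1A is the standard example of such a target. MLL4, the product of KMT2D, places H3K4me1 on enhancers and aids the acetylation that appears as H3K27ac, whereas MLL1 belongs to a related complex that acts mostly at promoters, where H3K4me3 lies. A target gene can therefore carry a promoter with H3K4me3 and surrounding enhancers with H3K4me1 and H3K27ac.

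The start site used is base 36678714 on the plus strand, from the RefSeq promoter record, and distances below are counted from it. The annotated gene begins 2251 bp further upstream, because other transcripts start there. A fold is the authors' own enrichment of ChIP over local background for a peak, from lists called separately for each library against 1 input per genotype. A region is the union of overlapping peaks of 1 target. It was WT only if all WT libraries and none of the KO libraries had a peak in it, KO only in the reverse case, retained if called in every library, and mixed otherwise. Lists ranged from 278 peaks (MLL4, KO) to 198757 (H3K27ac, WT replicate 2), and the read depth behind them is unknown. At KMT2D itself the MLL4 antibody gave 2 peaks in WT, the higher at 5.84-fold, and 0 in KO. Of 8 colon epithelium markers, 5 (CDX2, EPCAM, CDH1, KRT8 and KRT18) had an H3K4me3 peak in all 4 libraries and 3 (KRT20, VIL1 and LGALS4) in none, and 0 of 7 markers of other cell types had one. KRT8 and KRT18 had identical folds in every library, so the same peak appears to be counted for both.

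The 3 promoters in the window at which a summit of p53, MLL4 or MLL1 lay are printed first, since the results turn on what was called over them. Of a gene's promoter records inside the window, the one overlapped by the most MLL4 peaks was taken. Each sequence is the 250 bases before the start site from RefSeq (GRCh38.p14), written 5′ to 3′ on the gene's strand, with GC boxes (GGGCGG, searched on both strands) in capitals. The CDKN1A sequence lies at chr6:36678464-36678713 on the plus strand, SRSF3 at chr6:36594112-36594361 on the plus strand and CPNE5 at chr6:36765796-36766045 on the minus strand.
CDKN1A: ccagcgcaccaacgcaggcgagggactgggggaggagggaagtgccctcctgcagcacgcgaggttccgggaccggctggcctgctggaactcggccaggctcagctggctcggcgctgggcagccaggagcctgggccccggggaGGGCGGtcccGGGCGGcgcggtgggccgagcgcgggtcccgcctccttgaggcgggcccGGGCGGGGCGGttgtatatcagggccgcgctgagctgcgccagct
SRSF3: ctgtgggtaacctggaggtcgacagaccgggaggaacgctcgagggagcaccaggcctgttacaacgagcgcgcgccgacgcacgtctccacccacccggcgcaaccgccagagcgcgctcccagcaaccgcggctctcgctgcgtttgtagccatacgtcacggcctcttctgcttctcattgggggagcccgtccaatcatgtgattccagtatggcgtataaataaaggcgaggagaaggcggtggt
CPNE5: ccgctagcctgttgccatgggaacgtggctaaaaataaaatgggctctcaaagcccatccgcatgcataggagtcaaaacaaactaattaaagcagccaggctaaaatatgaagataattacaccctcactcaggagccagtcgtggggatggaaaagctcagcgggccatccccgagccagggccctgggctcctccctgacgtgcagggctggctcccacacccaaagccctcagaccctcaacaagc

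The CDKN1A sequence was 76.4% G or C and held 4 GC boxes, the last pair overlapping by 1 base. They lay 104 to 99, 94 to 89, 45 to 40 and 40 to 35 bases before the start site. Among 35116 RefSeq promoters of the same length, 42.6% held at least 1 GC box and 13.9% at least 3. The SRSF3 sequence (62.4% G or C) held 0 GC boxes, 2 CCAAT motifs and 1 TATAAA motif, and CPNE5 (54.8%) held none of these. CCAAT occurred in 32.0% of all promoters and TATAAA in 10.7%, both strands counted. None of the 3 windows held the p53 decamer, found in 5.57% of promoters, or a full p53 site made of a pair of decamers, found in 0.0256%. This says only that those letters are not in these 250 bases.

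**Figure D1:**
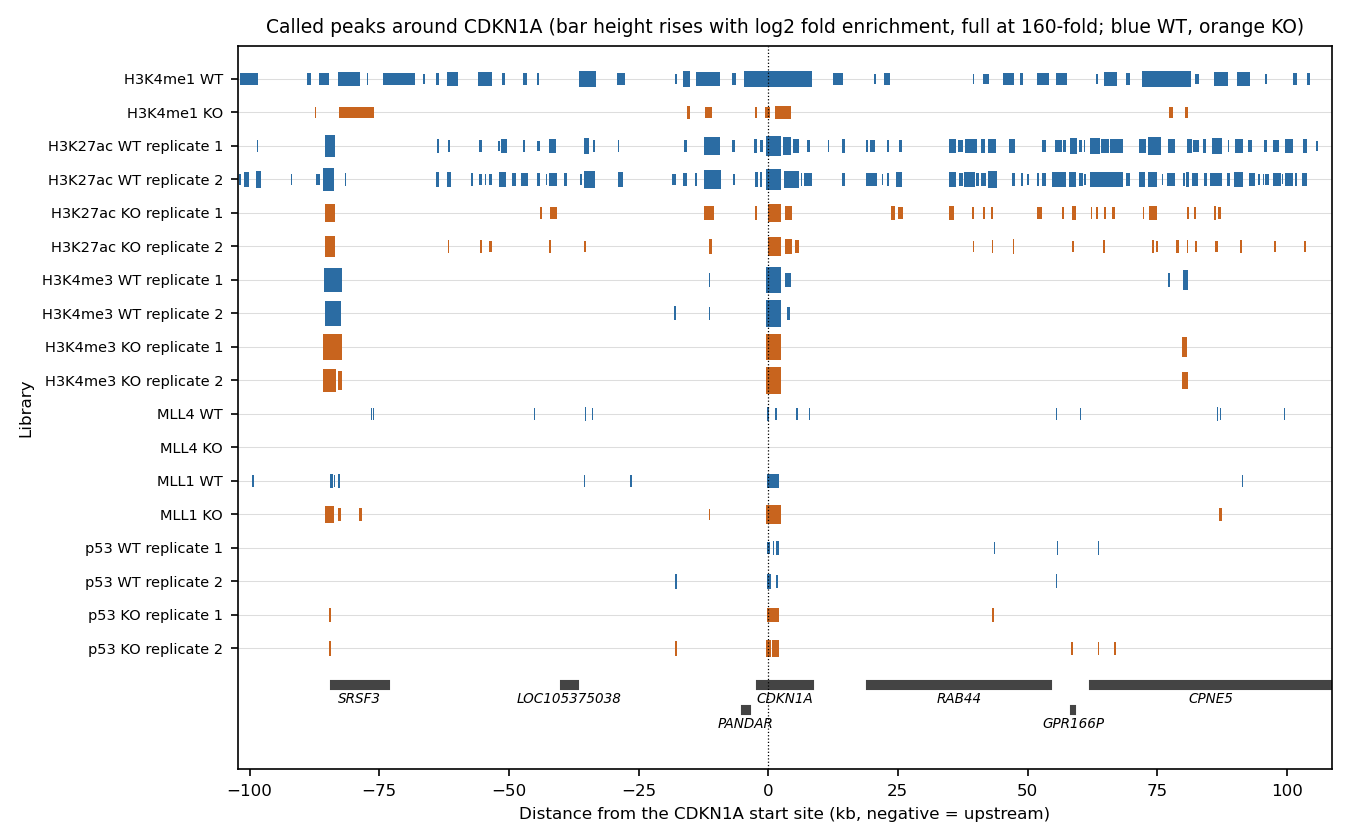
Called peaks across the window, with distance from the CDKN1A start site in kb on the x axis and 1 row per library on the y axis; bar height rises with log2 fold. The KO rows of H3K4me1 and H3K27ac hold fewer and narrower bars than the WT rows, the MLL4 row of KO is empty, and H3K4me3 stands at SRSF3, at CDKN1A and within CPNE5 in both genotypes.

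Enhancer marks covered much less of the neighbourhood of CDKN1A in KO. H3K4me1 had 39 peaks over 81.3 kb in WT and 9 peaks over 14.7 kb in KO. H3K27ac had 58 and 76 peaks in the WT libraries and 26 and 24 in the KO libraries. No KO library reached either WT library. Covered length was 68.9 ± 14.7 kb in WT and 17.7 ± 4.89 kb in KO (SD, n = 2), a log2 KO over WT difference of −1.97 (exact permutation p = 0.33, the smallest the design allows). The peak number gave −1.38 (exact permutation p = 0.33). With lists of equal length the differences were −1.44 in covered length and −0.26 in peak number, each with an exact permutation p of 0.33. The same lists shrank over the whole genome, from 218 to 49.7 Mb for H3K4me1 and from 176 ± 30.8 to 57.1 ± 7.75 Mb for H3K27ac (n = 2), so the fall near CDKN1A accompanied a general one.

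Counted by region, 33 of the 38 H3K4me1 regions of WT were WT only (86.8%), against 77.7% of such regions over the genome, and 1 of the 6 called in KO was KO only, against 23.6%. Of the 49 H3K27ac regions called in both WT libraries, 21 were WT only (42.9%), against 55.2% over the genome. None of the 13 called in both KO libraries was KO only, against 3.34%. These shares lie near the genome's, and they are given as a description. The count of WT-only H3K27ac regions depended on list length: with all 4 lists cut to equal length, 4 were WT only instead of 21, and without WT replicate 1, 46 were.

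The MLL4 antibody gave 14 peaks in the window in WT and 0 in KO, so all 14 were WT only, as were 99.8% of MLL4 regions over the genome. Their folds ran from 3.23 to 6.67, and the median fold of the whole WT list was 4.17. A −log10 q-value of 5 or more was reached by 1 of the 14. Of the 14, 9 overlapped an H3K4me1 peak of WT, 10 an H3K27ac peak of either WT library, 2 an H3K4me3 peak, 3 an MLL1 peak and 3 a p53 peak. In WT, H3K4me1 peaks covered 38.6% of the window and H3K27ac peaks 27.8% and 37.6%. The share of such overlaps over the genome was not computed. Within CDKN1A the MLL4 summits stood 22 bp before the start site (5.00-fold) and 1491 bp (3.23-fold), 5524 bp (3.33-fold) and 7849 bp (4.85-fold) after it. The highest of the 14 lay 35.3 kb upstream (6.67-fold), where 92.1% of the peaks of its own list were lower.

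**Figure D2:**
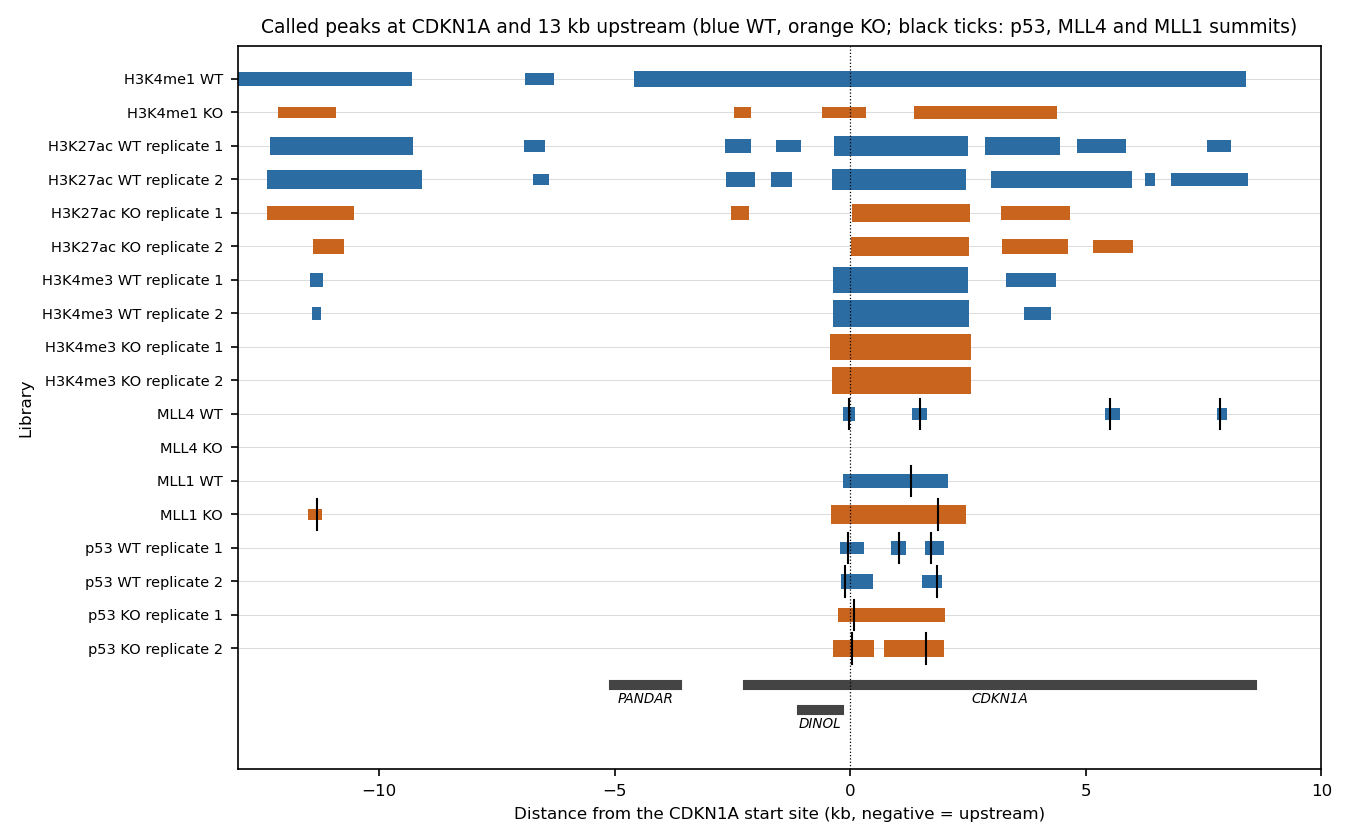
Called peaks from 13 kb upstream of the CDKN1A start site to its gene end, with distance in kb on the x axis and 1 row per library on the y axis; black ticks are summits of p53, MLL4 and MLL1. The H3K27ac peaks over the start site begin upstream of it in WT and just after it in KO, while the H3K4me3 peaks have the same extent in all 4 libraries.

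At the CDKN1A promoter H3K4me3 was of like height in both genotypes. Its peak at the start site (36678297 to 36681272) had folds of 114 and 155 in WT and 116 and 159 in KO. Both genotypes overlapped throughout, with a log2 KO over WT difference of 0.03 (exact permutation p = 0.667) beside a median of −0.00 over the 15520 H3K4me3 regions retained over the genome. Peak widths were 2868 and 2887 bp in WT and 2976 and 2945 bp in KO. The promoter mark was thus called over nearly the same stretch in every library, the whole printed sequence included. Over the genome 18.2% of retained H3K4me3 regions had both KO folds below both WT folds and 17.9% had both above.

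H3K27ac over the same promoter (36678333 to 36681260) had folds of 36.2 and 32.9 in WT and 15.0 and 25.4 in KO. Both KO values lay below both WT values, with means of 34.5 ± 2.34 and 20.2 ± 7.33 (SD, n = 2). The log2 difference was −0.82 (exact permutation p = 0.33), and the median over the 29149 H3K27ac regions retained over the genome was −0.81. Regions of similar WT fold (5277 regions within 0.5 on the log2 scale) had a median of −1.03. Without KO replicate 1 the difference was −0.44, and over all single libraries left out it ran from −1.20 to −0.44. This range includes the medians.

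The extent of promoter acetylation differed as well. Counted from the start site, the WT peaks began at −337 and −381 bp, and the KO peaks at 39 and 17 bp. All of them ended between 2459 and 2546 bp. In WT the H3K27ac peak thus covered the printed CDKN1A sequence in both libraries, and in KO in neither. The KO folds of these peaks were also lower, and the part of peak height in the position of the edge was not tested.

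MLL1, whose complex acts at promoters, was called over the CDKN1A start site at 6.67-fold in WT and 20.1-fold in KO. Its peak was 2228 bp wide in WT and 2850 bp in KO. The log2 difference was 1.59, and the median over the 14982 MLL1 regions called in both libraries was 1.44, so MLL1 folds were higher in the KO list generally. Among the 6063 regions of similar WT fold the median was 1.23. Across the window 4 of the 7 MLL1 regions of WT were WT only (57.1%, against 55.4% over the genome) and 3 of the 6 of KO were KO only (against 48.3%). Besides those described below, WT-only MLL1 regions lay 99.3 and 26.4 kb upstream and 91.4 kb downstream, each at 4.30-fold. Within SRSF3, 82.7 kb upstream, MLL1 was 5.37-fold in WT and 5.63-fold in KO, and 78.7 kb upstream it was called only in KO (5.97-fold).

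p53 was called at the CDKN1A start site in all 4 libraries (36678357 to 36680730), with highest folds of 7.72 and 10.3 in WT and 5.94 and 11.4 in KO. KO values lay on both sides of the WT values, and the means were 9.02 ± 1.84 and 8.68 ± 3.88 (SD, n = 2). The log2 difference was −0.12 (exact permutation p = 1), and the 2 KO libraries differed more from each other than the genotypes did. For p53 as a whole the 14296 retained regions had a median of −0.76, and 82.6% of them had a lower value than CDKN1A. Among the 5952 regions of similar WT fold the median was −0.43 and 72.9% were lower. Both KO folds lay below both WT folds in 55.7% of retained p53 regions, and CDKN1A was not among them.

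The p53 signal there consisted of separate peaks in WT. In WT replicate 1 summits stood 51 bp before the start site (4.45-fold) and 1040 bp (7.55-fold) and 1707 bp (7.72-fold) after it. In WT replicate 2 they stood 118 bp before it (10.3-fold) and 1853 bp after it (4.85-fold). Each WT library thus had a summit just before the start site and another well inside the gene. KO replicate 1 had 1 peak of 2269 bp with its summit 90 bp after the start site (5.94-fold). KO replicate 2 had summits 34 bp (10.9-fold) and 1616 bp (11.4-fold) after it. The promoter summits of both WT libraries fell inside the printed CDKN1A sequence and those of both KO libraries just after it. These promoter peaks alone had folds of 4.45 and 10.3 in WT and 5.94 and 10.9 in KO, which overlap. Their mean was higher in KO, whereas the difference of −0.12 given above also takes in summits inside the gene. The KO replicate 2 list was the longest p53 list (62248 peaks, against 24972 to 36525 in the others).

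**Figure D3:**
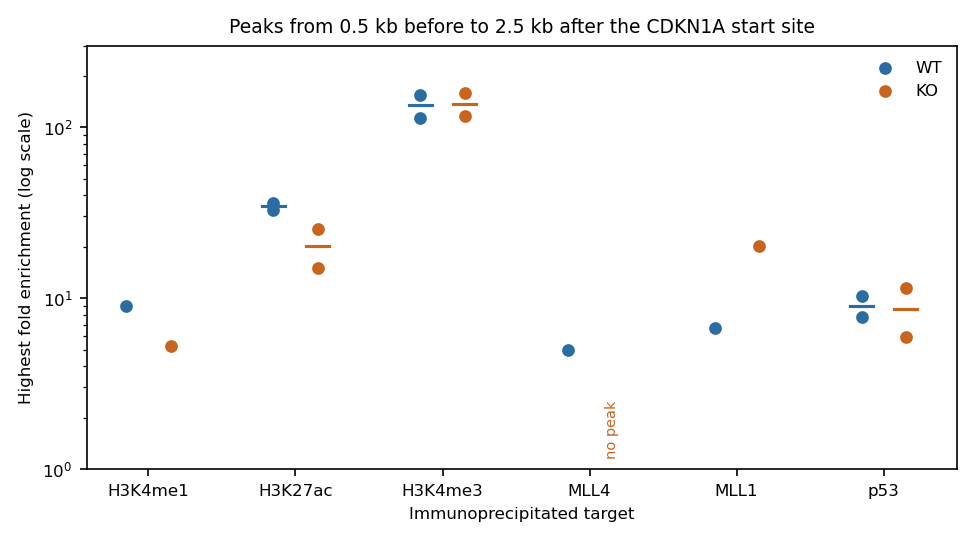
Highest fold of peaks at the CDKN1A start site and just inside the gene, on a log y axis, for each target on the x axis. Points are libraries and bars are means where a genotype had 2. H3K27ac points of KO (15.0 and 25.4) lie below those of WT (36.2 and 32.9), H3K4me3 and p53 points overlap, MLL1 is higher in KO and MLL4 has no KO peak.

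Over the window, covered p53 length was 1.74 ± 0.0622 kb in WT and 3.52 ± 0.80 kb in KO (SD, n = 2), with both KO libraries above both WT libraries (log2 difference 1.00, exact permutation p = 0.33; 1.58 at −log10 q-values of at least 5 and 1.79 with lists of equal length). The WT libraries had 6 and 4 peaks and the KO libraries 3 and 7, which overlap (log2 difference −0.06, exact permutation p = 1). The longer coverage came with wider peaks at the start site. Over the whole genome the p53 lists covered 17.5 and 18.3 Mb in WT and 15.8 and 32.5 Mb in KO, which overlap. MLL4 and p53 summits lay close together in WT at 3 places: 29 bp apart at the start site, 216 bp apart near 1.49 kb after it and 99 bp apart 55.5 kb downstream. Each gap is to the nearest p53 summit of either WT library. For the other MLL4 peaks of the window that summit lay 3412 to 58687 bp away. The share of such close pairs over the genome was not computed.

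The known p53 response elements of CDKN1A lie upstream of the promoter. Between 5 kb and 500 bp before the start site, no p53, MLL4, MLL1 or H3K4me3 peak was called in any library. H3K27ac was called there. One region around 2.19 kb upstream (36676049 to 36676686) had folds of 7.29 and 8.55 in WT, 6.06 in KO replicate 1 and no peak in KO replicate 2. Another, 1.48 kb upstream in CDKN1A and DINOL (36677045 to 36677678), was called at 3.91 and 7.99 in WT and in neither KO library. This stretch thus carried acetylation in both WT libraries without a called p53 peak. A missing peak shows only that the signal stayed under the calling limit.

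H3K4me1 formed 1 peak of 12987 bp over most of CDKN1A in WT (36674132 to 36687118, 9.0-fold). KO had 3 narrower peaks within it: 363 bp (3.32-fold), 930 bp (3.69-fold) and 3044 bp (5.23-fold). The highest of them started 1354 bp after the start site. The log2 difference of the highest folds was −0.78, beside a median of −0.46 over the 27912 H3K4me1 regions called in both libraries. Among the 10111 of similar WT fold the median was −0.92, and 65.0% of them had a lower value than CDKN1A. H3K4me1 was thus present over the gene in KO as fragments of the WT domain.

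Downstream of the start site within the gene, an H3K27ac region centred near 3.86 kb (36681569 to 36684719) had folds of 14.8 and 16.6 in WT and 5.78 and 8.72 in KO. Genotypes did not overlap (log2 difference −1.14, exact permutation p = 0.33). Among the 5922 H3K27ac regions of similar WT fold over the genome the median was −0.95, and 35.7% were lower. A small H3K4me3 peak inside the 3.86 kb region (36682015 to 36683078; 6.84 and 5.82 in WT) was called in neither KO library. Further on, near the gene end, an H3K27ac region (36685525 to 36687158; 3.61 and 5.65) was WT only and overlapped the MLL4 peak at 7849 bp. Mean acetylation folds thus declined along the gene in both genotypes, from 34.5 at the promoter to 15.7 and 4.63 in WT, and from 20.2 to 7.25 and no peak in KO.

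By H3K27ac fold, the strongest upstream element outside genes lay 11.3 kb before the start site, upstream of PANDAR. Its H3K27ac region (36666330 to 36669618) had folds of 15.9 and 19.96 in WT and 5.76 and 8.47 in KO, with no overlap between genotypes (log2 difference −1.35, exact permutation p = 0.33). This was the lowest log2 difference among the 13 retained H3K27ac regions of the window. Among the 5473 H3K27ac regions of similar WT fold over the genome the median was −0.96, and 24.4% were lower. H3K4me1 there was 7.77 in WT and 3.51 in KO, and a weak H3K4me3 peak (6.21 and 4.54 in WT) was WT only. MLL1 was called there only in KO (3.24-fold), and neither MLL4 nor p53 was called in any library. The 2 WT-only H3K4me3 regions of the window, here and within CDKN1A, were 2 of the 4 called in both WT libraries, against 5.35% over the genome. No H3K4me3 region was KO only, against 2.52%. Both WT-only regions were weak, and with −log10 q-values of at least 5, 1 of them was left.

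Other upstream elements differed by target. At 35.3 kb upstream, where the highest MLL4 peak lay, H3K4me1 (9.16-fold) and MLL1 (4.69-fold) were WT only. H3K27ac there was 8.42 and 12.5 in WT, absent in KO replicate 1 and 3.75 in KO replicate 2. At 17.8 kb upstream p53 was called only in the second library of each genotype (8.08 in WT, 9.52 in KO), with WT-only H3K4me1 of 2.71-fold. That p53 peak thus went with the replicate number and not with the genotype. At 15.8 kb upstream H3K4me1 was 8.62 in WT and 3.84 in KO, and H3K27ac (3.84 and 4.13) was WT only. At 60.8 kb upstream H3K4me1 of 6.17-fold was WT only.

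**Figure D4:**
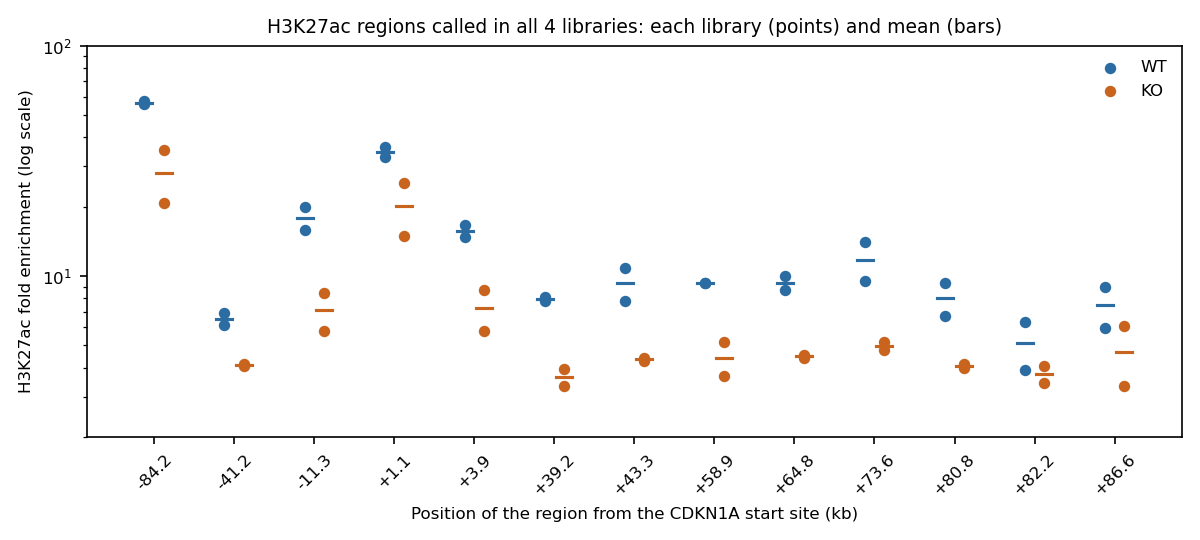
Fold of the 13 H3K27ac regions called in all 4 libraries (log y axis) by distance from the CDKN1A start site in kb (x axis, not to scale); points are libraries and bars are means. In 11 regions both KO points lie below both WT points, and the other 2 lie at 82.2 and 86.6 kb.

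All 13 retained H3K27ac regions of the window had a lower mean log2 fold in KO, with differences from −1.35 to −0.41 and a median of −1.07. In 11 of the 13 both KO folds were lower than both WT folds, beside 79.0% of retained H3K27ac regions over the genome. In 0 were both higher, beside 1.95%. The SRSF3 promoter, 84.2 kb upstream, had the highest acetylation of the window at 55.5 and 57.5 in WT and 20.7 and 35.2 in KO (log2 difference −1.07, exact permutation p = 0.33; −0.68 without KO replicate 1). Within CPNE5, 73.6 kb downstream, the mark had 14.1 and 9.48 in WT and 5.16 and 4.80 in KO (log2 difference −1.21, exact permutation p = 0.33). At both places KO lay below WT without overlap. Regions of similar WT fold over the genome had a median of −1.11 for SRSF3 (53.2% lower) and −0.90 for CPNE5 (18.6% lower). Within RAB44, 43.3 kb downstream, H3K27ac had 7.79 and 10.8 in WT and 4.26 and 4.43 in KO. At 58.9 kb, at the pseudogene GPR166P, it had 9.29 and 9.30 in WT and 5.16 and 3.70 in KO. At 64.8 kb, in CPNE5, it had 8.69 and 10.04 in WT and 4.56 and 4.43 in KO. In these 3 the genotypes did not overlap either.

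Of the 9 p53 regions of the window, 1 was retained (CDKN1A), 1 was WT only, 1 was KO only and 6 were mixed. All 9 overlapped an H3K27ac peak of WT, 6 overlapped one of KO, and 2 overlapped an MLL4 peak. H3K27ac peaks covered 27.8% and 37.6% of the window in WT and 10.0% and 6.75% in KO. The share of such overlaps over all p53 regions of the genome was not computed. The WT-only p53 region lay between RAB44 and GPR166P, 55.6 kb downstream (36734171 to 36734518), with folds of 5.27 and 6.29. Among the p53 regions called in both WT libraries it was 1 of 2, against 12.7% WT only over the genome. It overlapped an MLL4 peak (4.17-fold) and a WT-only H3K4me1 peak (3.38-fold). The H3K27ac region around it had folds of 4.64 and 6.49 in WT, 3.598 in KO replicate 1 and no peak in KO replicate 2. That KO replicate 1 peak did not overlap the p53 region itself, whereas both WT libraries had an H3K27ac peak that did. At −log10 q-values of at least 5 this p53 region was no longer WT only, since 0 such regions were left. The other mixed p53 regions lay in RAB44, GPR166P and CPNE5. In RAB44 they lay at 43.3 kb (5.11, KO replicate 1) and 43.6 kb (4.53, WT replicate 1), and at GPR166P at 58.6 kb (5.08, KO replicate 2). In CPNE5 they lay at 63.6 kb (5.20 in WT replicate 1 and 5.71 in KO replicate 2) and at 66.7 kb (4.44, KO replicate 2).

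The KO-only p53 region lay on the SRSF3 promoter, 84.5 kb upstream (36594035 to 36594493). Its folds were 6.41 and 7.16 in KO, and neither WT library had a p53 peak there. It was 1 of the 2 p53 regions called in both KO libraries, against 17.6% KO only over the genome. The summits stood 146 and 165 bp before the SRSF3 start site, inside the printed SRSF3 sequence. MLL1 over the same promoter was 5.37-fold in WT and 12.9-fold in KO, and H3K4me3 had folds of 92.2 and 128 in WT and 120 and 52.8 in KO, which overlap (log2 difference −0.45, exact permutation p = 0.667; −1.04 to 0.15 with 1 library left out). No MLL4 peak was called at that promoter.

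Within CPNE5, 80.2 kb downstream, H3K4me3 was called at 28.3 in WT replicate 1, 24.1 in KO replicate 1 and 14.5 in KO replicate 2, with no peak in WT replicate 2. Single weak H3K4me3 peaks in CPNE5 at 77.3 kb (5.15-fold, WT replicate 1) and at 17.9 kb upstream of CDKN1A (6.33-fold, WT replicate 2) were called in 1 library each. H3K4me1 in CPNE5 near 76.8 kb had the highest WT fold of the window (10.2) and 3.42 in KO, a log2 difference of −1.58. Among the 7477 H3K4me1 regions of similar WT fold the median was −1.05 and 7.76% were lower. At the printed CPNE5 promoter, 87.1 kb downstream, MLL4 was called in WT at 4.17-fold with its summit 13 bp after the printed start. MLL1 was called there in KO only, at 4.53-fold. The promoter record was chosen by its overlap with MLL4 peaks, so MLL4 lying at this start carries no weight. The start, base 36765795, lies inside the annotated gene (36740775 to 36839998), and no H3K4me3 peak was called over this promoter. H3K4me1 over the promoter (6.42-fold) was WT only.

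The other genes of the pathway came from a list of 47 genes: the p53 circuit, p53 targets in growth arrest, apoptosis and DNA repair, the other cyclin-dependent kinase inhibitors, and partners and targets of p21. Regions within 10 kb of each gene were counted. For H3K4me3, 1 of the 47 genes had a WT-only region, which was CDKN1A with 2, and 3.64% of protein-coding genes had one. MLL4 was WT only near 42 of 47 (77.3% of all genes), H3K4me1 near 41 (80.4%) and H3K27ac near 34 (63.7%). MLL1 was KO only near 29 of 47 (42.0% of all genes) and WT only near 20 (44.7%). p53 was WT only near 3 of 47 (10.5% of all genes) and KO only near 13 (20.3%).

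The p53 region nearest each gene was retained for 32 of the 47 genes, KO only for 5, mixed for 10 and WT only for 0. Where several regions touched a gene, the one with the highest fold in any library counted as nearest. The same shares over all protein-coding genes were not computed. The 5 whose nearest region was KO only were CCNG1, BTG2, SFN, RRM2B and CDK4, named after their values were seen. Among the 32, log2 KO over WT ran from −2.02 to 0.46 with a median of −0.59, beside −0.76 over all retained p53 regions. Both KO folds lay below both WT folds at 12 genes and above them at 3, and 55.7% and 4.09% of all retained p53 regions did so. CDKN1A (−0.12) ranked 8 from the highest.

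Each role held a wide range, and no difference between roles was tested. Many of the genes named below were chosen for the highest WT p53 fold in their role. That choice favours lower KO folds among them, so they are given as examples and not as evidence of a fall. In apoptosis the log2 differences ran from −2.02 at TP53INP1 to 0.46 at PMAIP1, and in DNA repair and stress from −1.73 at PHLDA3 to 0.39 at XPC. In apoptosis TP53INP1, a p53-induced stress protein, had folds of 21.1 and 41.6 in WT and 6.12 and 8.68 in KO. BBC3, which encodes the BH3-only protein PUMA, had 20.02 and 34.1 in WT and 6.53 and 12.2 in KO, and AEN, an exonuclease of apoptosis, 16.6 and 25.9 in WT and 6.60 and 5.10 in KO. In all 3 the KO folds lay below the WT folds without overlap. TNFRSF10B, a death receptor, had 18.1 and 8.46 in WT and 7.90 and 11.8 in KO, which overlap. At FAS, another death receptor, KO was higher without overlap (4.78 and 5.33 in WT, 5.52 and 7.62 in KO), and at BAX, a pore-forming effector, the genotypes overlapped (7.19 and 11.7 in WT, 8.15 and 7.62 in KO).

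Among repair and stress genes PHLDA3, an inhibitor of AKT, had folds of 21.9 and 40.2 in WT and 9.72 and 8.25 in KO. POLH, the translesion polymerase eta, had 9.06 and 38.1 in WT and 8.65 and 4.44 in KO. XPC, which recognises damaged DNA, had 8.29 and 8.23 in WT and 9.42 and 12.4 in KO. PHLDA3 and POLH were lower in both KO libraries, and XPC was higher in both. SPATA18, which acts in mitochondrial quality control, had 12.8 and 26.8 in WT and 7.66 and 5.71 in KO, without overlap.

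Of the growth-arrest genes, PLK3, a stress kinase, had 7.17 and 31.7 in WT and 7.78 and 8.14 in KO, and GADD45A, a stress sensor, 6.57 and 16.9 in WT and 7.92 and 11.9 in KO. Both overlap between genotypes, as CDKN1A does. So do the sestrins SESN1 (6.80 and 15.4 in WT, 7.20 and 8.68 in KO) and SESN2 (9.82 and 20.4 in WT, 8.68 and 11.4 in KO). In the p53 circuit PPM1D, a phosphatase that turns p53 off, had 13.7 and 24.02 in WT and 6.40 and 9.93 in KO, without overlap.

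Among the other kinase inhibitors CDKN1C, which encodes p57, had p53 folds of 12.1 and 29.6 in WT and 13.8 and 11.9 in KO. CDKN2D had 9.06 and 25.4 in WT and 9.96 and 7.05 in KO, and CDKN2B 8.23 and 25.4 in WT and 5.81 and 15.1 in KO. These 3 overlap between genotypes. CDKN2A, which encodes p16 and ARF, had 11.98 and 22.3 in WT and 5.43 and 8.97 in KO, without overlap. Of the partners and targets of p21, E2F1, a transcription factor of S phase entry, had 9.06 and 31.7 in WT and 6.13 and 8.25 in KO, and the cyclin gene CCNE1 9.06 and 23.96 in WT and 4.68 and 7.05 in KO. Neither overlaps, whereas the cyclin genes CCNE2 (10.7 and 21.7 in WT, 8.72 and 11.3 in KO) and CCND1 (10.6 and 14.8 in WT, 11.5 and 11.1 in KO) do.

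**Figure D5:**
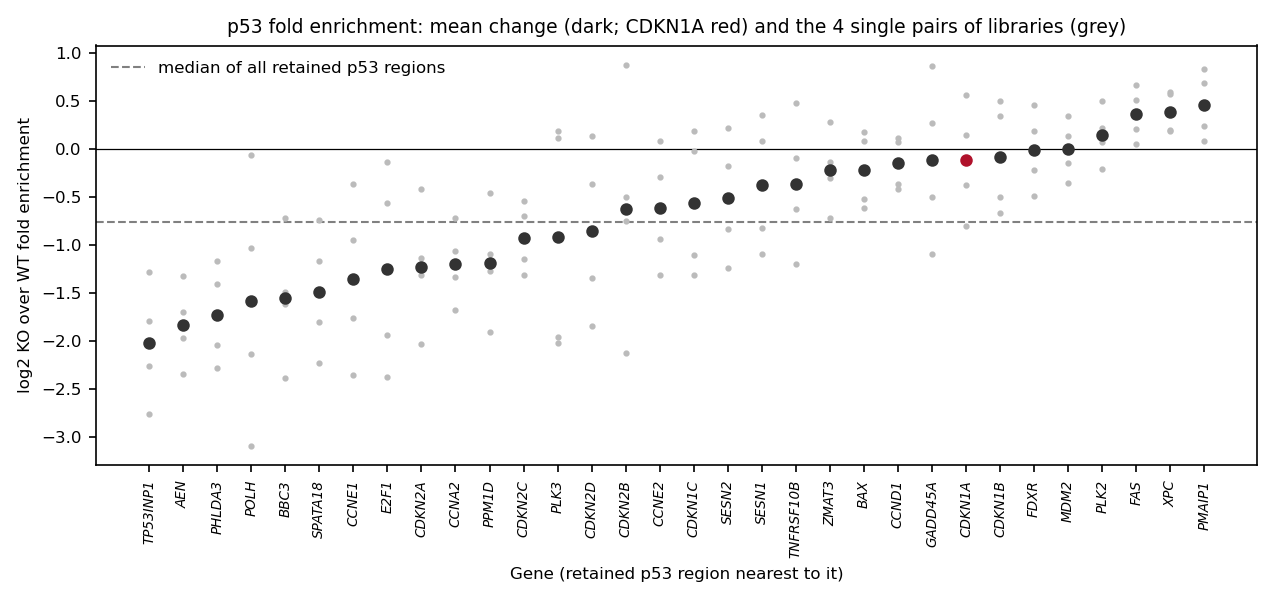
log2 KO over WT fold of the retained p53 region nearest each of 32 listed genes (y axis; genes on the x axis in rising order); dark points are differences of means, grey points the 4 single pairs of a KO and a WT library, and the dashed line is the median of all retained p53 regions (−0.76). CDKN1A, in red at −0.12, lies above the dashed line, and its grey points lie on both sides of 0.

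The genes most like CDKN1A were ranked by how many of the 6 targets had the same status at the region nearest the gene. Ties were broken by how near their highest WT p53 fold was to that of CDKN1A. KO folds did not enter this tie-break, but KO calls set the statuses. A retained p53 status needs a peak in both KO libraries, so the KO p53 folds of these genes are not independent of the choice. All 6 statuses were shared by 25 of the other genes, 5 by 15, 4 by 5 and 2 by 1, so the pattern was the common one of the list. The 5 nearest were MDM2, CDKN1B, FDXR, PMAIP1 and BAX. MDM2, the ubiquitin ligase of p53, had p53 folds of 8.96 and 10.4 in WT and 8.10 and 11.4 in KO. CDKN1B, which encodes the related inhibitor p27, had 8.66 and 9.67 in WT and 6.10 and 12.2 in KO. PMAIP1, the BH3-only protein NOXA, had 6.04 and 9.16 in WT and 9.70 and 10.8 in KO. At MDM2 and CDKN1B the KO values lay on both sides of the WT values, and at PMAIP1 both KO values were higher.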

How the data were processed

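Peak lists of 18 ChIP libraries were used, 1 list per library, and the 2 inputs were not analysed here. Per the submitters' processing notes, the caller was MACS2 2.1.1 and the build hg38. Peak names in the deposited lists show that no libraries were pooled and that each was called against its genotype's input. Aligner and depth: not given in the sources used here. The deposited lists give, per peak, a score, a fold (the ratio of ChIP to the local background), −log10 p and q values, and in the narrow lists the summit offset.

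Peaks of a target were merged at an overlap of 1 bp or more, and a region's fold is the highest of its peaks in a library. Log2 peak number and covered length (each plus 1) and log2 fold were compared by two-sided exact permutation over libraries. RefSeq tables (GRCh38.p14) gave genes and promoters. Python 3.11.15, pandas 2.3.3, NumPy 2.4.6 and matplotlib 3.10.9 were used, and the scripts were tested on simulated lists.

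Named were all p53, MLL4 and MLL1 regions or their ranges, regions near CDKN1A, the histone regions of highest fold, the 5 list genes most like CDKN1A, and up to 4 list genes per role with the highest WT p53 fold, beside others named for their KO-only region or their place in a range. The region, the gene list and these rules were chosen with earlier results of these data known. Alternatives were stricter peaks, lists of equal length, another merging rule, a window of 20 kb on each side, a replicate block and leaving out each library.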

Additional observations from a re-analysis of the deposited data

How the results depend on the processing

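A call says only that a signal passed the caller's limit, and no read depth was at hand. Of 16 retained regions in replicated targets, 13 kept the direction of their fold difference whichever library was left out. With 1 library left out, the log2 difference of p53 peak number ran from −0.56 to 0.44 and of its fold at CDKN1A from −0.59 to 0.36. H3K4me3 ran from −0.34 to 0.035 in covered length, from −0.20 to 0.26 in fold at CDKN1A and from −1.04 to 0.15 at SRSF3. The p53 peak number gave 0.29 at −log10 q of at least 5 and 0.58 with lists of equal length. H3K4me3 peak number moved from −0.54 to −1.16 in the 20 kb window.

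Counts of regions moved as follows. At −log10 q of at least 5, H3K4me1 had 19 WT-only, 0 KO-only and 1 retained regions, H3K27ac 4 retained, H3K4me3 1 WT only, MLL4 1 WT only, MLL1 0 WT only and 1 retained, and p53 0 WT only. With lists of equal length WT-only counts were 13 for H3K4me1, 4 for H3K27ac, 0 for MLL4 and 0 for p53. For MLL4 this cut the WT list from 56770 to 278 peaks, so its count of 0 says little about the window. In the 20 kb window H3K4me1 had 5 WT-only, 0 KO-only and 3 retained regions, H3K27ac 7 WT only and 3 retained, H3K4me3 1 retained, MLL4 4 WT only, MLL1 0 WT only, 1 KO only and 1 retained, and p53 0 WT only and 0 KO only. With 1 library left out, H3K27ac had 28 to 46 WT-only, 0 to 1 KO-only and 13 to 21 retained regions, H3K4me3 2 to 3 WT only, 0 to 1 KO only and 2 to 3 retained, and p53 1 to 2 WT only, 1 to 3 KO only and 1 to 2 retained. Moves of over 1.5 times came without H3K27ac WT replicate 1 (46 WT only), H3K27ac KO replicate 1 (1 KO only, 20 retained) or 2 (1 KO only, 21 retained), H3K4me3 WT replicate 1 (1 KO only), p53 WT replicate 2 (2 WT only) and p53 KO replicate 1 (3 KO only, 2 retained) or 2 (2 KO only). Merging by an overlap of 50% of the shorter peak gave 23 WT-only H3K27ac and 5 WT-only MLL1 regions and the same counts otherwise. The cause was not tested, beyond fewer peaks or libraries entering.

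Same-numbered replicates did not deviate together (correlations of −0.074 for H3K27ac, −0.050 for H3K4me3 and 0.025 for p53 over retained regions). With the replicate block the H3K27ac peak number kept −1.38 with an exact p of 0.50, the smallest 2 pairs allow.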
